A study of Mus musculus with 18 samples.

Results

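The genes described here are named as subunits of the mitochondrial respiratory chain and of ATP synthase. They are the protein-coding rows whose symbol follows the naming of nuclear subunits of complexes I to V, together with the 13 protein-coding mitochondrial genes. These were 99 of the 55385 rows, 86 nuclear and 13 mitochondrial. Complex I (NADH dehydrogenase) had 39 nuclear and 7 mitochondrial genes, complex II (succinate dehydrogenase) 4 nuclear genes, complex III 8 nuclear genes and 1 mitochondrial gene, complex IV (cytochrome c oxidase) 17 nuclear and 3 mitochondrial genes, and complex V (ATP synthase) 18 nuclear rows and 2 mitochondrial genes. Of the 99 rows, 96 passed the filter on low counts. Cox7b2 and Cox8c were at 0 counts in every library, and a second Atp5o row, a readthrough transcript, had 18 counts over all libraries. The nuclear genes lay on 19 chromosomes, so the set is scattered over the genome except for its mitochondrial part. Cyc1, a complex III subunit, carries a symbol outside the rule and is given with the electron carriers. The rule also leaves out Cox8b, which is given with the fat markers.

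The kidneys of 18 mice were profiled by polyadenylated RNA sequencing. Dp16 mice (n = 6) carry a duplication of the stretch of chromosome 16 that corresponds to much of human chromosome 21, and model trisomy 21. Dp16 2xIFNRs mice (n = 6) have this duplication too, but the dosage of the interferon receptor genes inside it is set back to normal. Wild-type C57BL/6J mice (n = 6) are the controls. Each group had 3 males and 3 females, aged 17.1 to 18 weeks, with treatment given as not applicable in the labels. In this duplication 3 copies of each gene stand against the usual 2. The segment was taken here as chromosome 16, positions 75540514 to 97962622 (GRCm38), from Lipi to Zbtb21. The sample descriptions end in a number that some animals of different genotypes share (7 such pairs), and the labels do not say what it marks; p-values therefore measure the spread between these animals.

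The respiratory chain passes electrons from NADH and succinate through complexes I to IV to oxygen and pumps protons across the inner mitochondrial membrane, and ATP synthase uses the resulting gradient to make ATP. Most subunits are encoded in the nucleus, made in the cytosol and imported, while a small core is encoded and made inside the mitochondrion, so the complexes are assembled from the products of both genomes. The kidney, and its proximal tubule above all, depends on this chain to drive the reabsorption of salts and nutrients. Among nuclear regulators of these genes, the nuclear respiratory factors NRF1 and GABP (whose DNA-binding subunit is Gabpa), the estrogen-related receptors and the coactivator PGC-1α are the textbook ones.

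Only 2 of the 96 genes tested differed in any comparison of genotypes, and both lie in the duplicated segment and encode subunits of the peripheral stalk of ATP synthase. Atp5j (coupling factor of the stalk) and Atp5o (the oligomycin sensitivity conferral protein, at the top of the stalk) rose in Dp16 and in Dp16 2xIFNRs kidneys by close to the ratio of gene copies. The other 94 did not pass the test in any comparison of genotypes. Atp5j (ENSMUSG00000022890.13) lies on chromosome 16, positions 84827866 to 84835625, minus strand, and overlaps Gabpa on the opposite strand. Atp5o (ENSMUSG00000022956.11) lies at 91925214 to 91931687, minus strand, and overlaps 3 other genes, 1 of them, the readthrough row, on its own strand. Whether counting used the strand is not given in the sources used here, so reads from Atp5j and Gabpa in the stretch they share may not have been told apart.

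The 250 bases before the starts of both genes are printed because these are the members whose expression followed the duplication. RefSeq (GRCm38.p6) lists an outer and an inner start for Atp5j. Capitals mark exact matches, on either strand, to the ETS-family motif CCGGAAG (the family of GABP) and the YY1 motif AAGATGGC, which do not overlap each other here.
Atp5j, outer start, chr16:84835626-84835875, minus strand: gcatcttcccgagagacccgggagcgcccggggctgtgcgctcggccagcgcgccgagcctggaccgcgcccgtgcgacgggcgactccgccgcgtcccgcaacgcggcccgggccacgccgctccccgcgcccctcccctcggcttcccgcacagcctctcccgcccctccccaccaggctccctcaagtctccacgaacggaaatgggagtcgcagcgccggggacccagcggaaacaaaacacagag
Atp5j, inner start, chr16:84834977-84835226, minus strand: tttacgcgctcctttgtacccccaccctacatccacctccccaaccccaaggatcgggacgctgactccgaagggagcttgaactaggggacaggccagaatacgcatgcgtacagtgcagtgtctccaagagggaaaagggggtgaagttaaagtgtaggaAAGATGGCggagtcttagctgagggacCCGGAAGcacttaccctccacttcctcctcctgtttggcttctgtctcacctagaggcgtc
Atp5o, chr16:91931631-91931880, minus strand: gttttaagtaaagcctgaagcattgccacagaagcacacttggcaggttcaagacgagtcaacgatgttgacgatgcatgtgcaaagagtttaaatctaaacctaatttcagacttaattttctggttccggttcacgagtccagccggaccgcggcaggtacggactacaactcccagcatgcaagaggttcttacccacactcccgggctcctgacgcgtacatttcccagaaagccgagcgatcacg
The inner Atp5j window holds 1 ETS match, whose first base lies 61 bases before the start, and 1 YY1 match, at 88 bases before it. It shares 147 bases with the window of Gabpa, which starts on the opposite strand (chr16:84834874-84835123, plus strand), so both matches also lie before Gabpa, at 93 and 67 bases. The outer Atp5j window and the Atp5o window hold no match to these motifs, nor to the NRF1 motif CGCATGCGC or the ERR motif AAGGTCA. RefSeq promoters were found by symbol for 68 of 85 nuclear members. In windows from 250 bases before to 50 after the start, the ETS letters occurred in 25.0% of these 68 genes and in 9.9% of all 27025 genes in the table. The NRF1 letters occurred in 11.8% against 2.0%, the YY1 letters in 14.7% against 3.2% and the ERR letters in 11.8% against 5.4%. Without the 50 bases after the start, the YY1 share of members was 1.5%, against 1.8% of all genes.

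CPM values (counts scaled to a common library size after trimmed-mean normalization) separated the genotypes completely at Atp5j. Its lowest, median and highest values were 306, 329.7 and 395.6 CPM in Dp16 kidneys, 306, 322 and 338.8 CPM in Dp16 2xIFNRs kidneys, and 200.7, 222.2 and 258.1 CPM in wild-type kidneys. Every animal with the duplication lay above every wild-type animal, while the Dp16 and Dp16 2xIFNRs ranges overlapped. The log2 fold change was 0.62 ± 0.08 (SE, 95% interval 0.46 to 0.78) in Dp16 over wild-type kidneys, with an adjusted p of 8.2e-05 by edgeR's quasi-likelihood test. In Dp16 2xIFNRs over wild-type kidneys it was 0.52 ± 0.08 (0.36 to 0.68), with an adjusted p of 0.00051. The log2 of 3 copies over 2, 0.585, lies inside both intervals.

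Atp5o had lowest, median and highest values of 415.3, 458.2 and 560.5 CPM in Dp16 kidneys, 428.4, 450.8 and 490.4 CPM in Dp16 2xIFNRs kidneys, and 275.5, 306.5 and 374.8 CPM in wild-type kidneys. Again no animal with the duplication overlapped a wild-type animal. The log2 fold change was 0.60 ± 0.08 (SE, 0.42 to 0.78) in Dp16 over wild-type kidneys (edgeR adjusted p = 0.00032) and 0.52 ± 0.08 (0.35 to 0.70) in Dp16 2xIFNRs over wild-type kidneys (adjusted p = 0.0013). Between Dp16 2xIFNRs and Dp16 kidneys, Atp5j differed by -0.09 (95% interval -0.25 to 0.06, adjusted p = 0.85) and Atp5o by -0.08 (-0.25 to 0.10, adjusted p = 0.88). Over all 17575 genes tested, 4.23% were called in Dp16 against wild-type kidneys (3.17% higher, 1.06% lower), and 4.79% in Dp16 2xIFNRs against wild-type kidneys (3.17% higher, 1.61% lower). The CPM of all Dp16 animals lay above those of all wild-type animals for 1.06% of genes and below them for 0.239%, and those of all Dp16 2xIFNRs animals for 1.04% and 0.529%. Among the 96 members this held for Atp5j and Atp5o, both above wild-type, in each line. The 2 comparisons share their wild-type libraries. With females alone, 3 against 3, the Atp5o fold change was 0.69 (adjusted p = 0.090) in Dp16 over wild-type kidneys, and the Dp16 2xIFNRs changes also missed the threshold with their sizes kept (0.58 for each gene). In bulk tissue, a change in the number of cells of a type and a change in RNA per cell cannot be told apart.

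Set against the rest of the enzyme, the shift of Atp5j and Atp5o was sharper than their CPM show, because the animals' overall subunit level cancels. Each animal's RPKM (counts scaled to gene length and library size, as deposited) was divided by the geometric mean of the 15 other nuclear complex V genes. For Atp5j this log2 ratio averaged 0.007 ± 0.031 in Dp16 kidneys, -0.004 ± 0.026 in Dp16 2xIFNRs kidneys and -0.63 ± 0.03 in wild-type kidneys (SD, n = 6 each). For Atp5o it averaged 0.90 ± 0.04 in Dp16 kidneys, 0.91 ± 0.06 in Dp16 2xIFNRs kidneys and 0.28 ± 0.07 in wild-type kidneys. The ranges with and without the duplication did not overlap for either gene. Atp5j ran from -0.05 to 0.04 in Dp16 kidneys and from -0.03 to 0.03 in Dp16 2xIFNRs kidneys, against -0.66 to -0.60 in wild-type kidneys. Since the fold changes of both genes had already been tested, these ratios are given as a description.

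**Figure D1:**
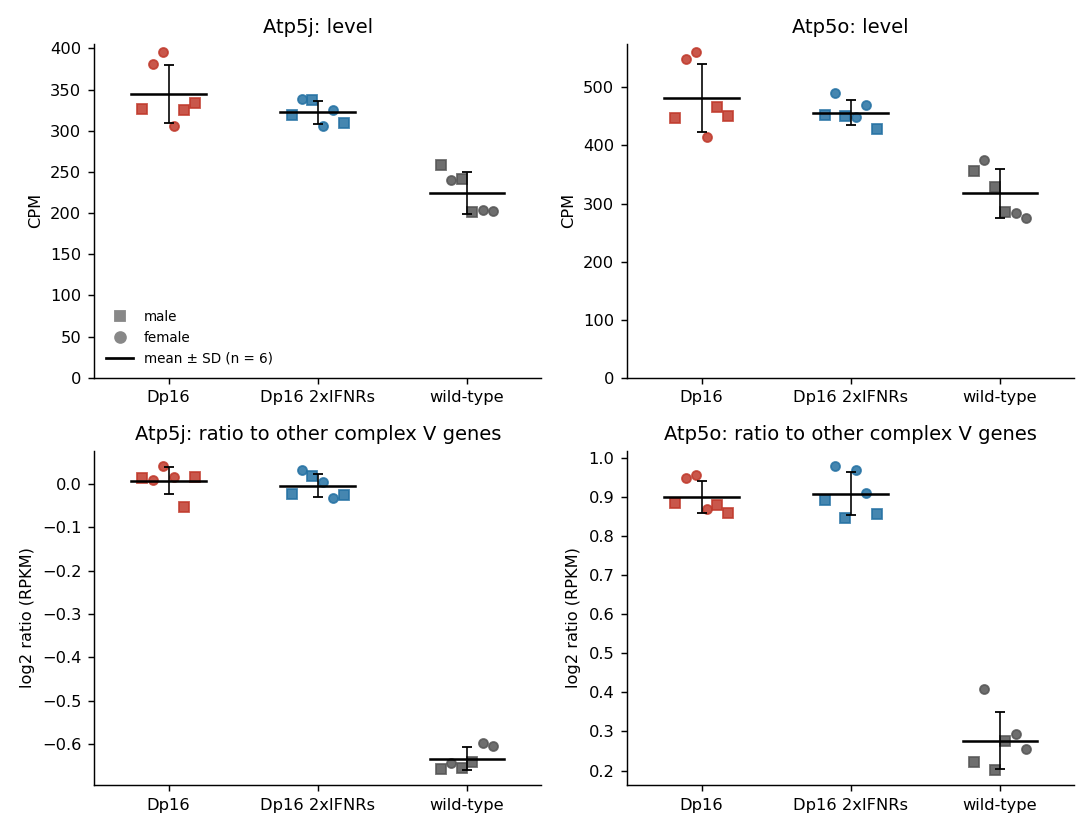
Atp5j and Atp5o in each animal: CPM (top) and log2 RPKM ratio to the 15 other nuclear ATP synthase genes (bottom), by genotype, with squares for males, circles for females and bars for the mean ± SD of 6 animals. All Dp16 and Dp16 2xIFNRs animals lie above all wild-type animals in each panel, and the Atp5j ratio lies near 0 with the duplication and near -0.63 without it.

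Levels between genes were compared in RPKM, averaged over the 18 libraries. The chain's nuclear genes spanned about 3 orders of magnitude, with the widest spread inside complex IV. There the ubiquitous isoforms led, with Cox4i1 at 1014.5, Cox6a1 at 1013.6 and Cox8a at 852 RPKM, while the isoforms known for restricted expression were low. Cox7a1, the heart and muscle isoform, was at 19.4, Cox6b2, the testis isoform, at 7.18, Cox6a2, the heart and muscle isoform, at 2.30 and Cox4i2, the lung and oxygen-responsive isoform, at 1.52 RPKM. In complex V, Atp5b (the catalytic beta subunit) was at 1660, Atp5g3 (a gene of the rotating c-ring) at 946 and Atp5a1 (the alpha subunit) at 842 RPKM, and the stalk genes Atp5o and Atp5j at 501 and 267 RPKM. Atp5g1 (62.9) and Atp5md (40.5) had the lowest RPKM in that complex. These ranks depend on the gene length behind RPKM. Atp5g1 had 286619 counts in total at 4912 bases, and Atp5j 275058 counts at 1115 bases.

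The nuclear complex I genes were led by Ndufa4, since placed by biochemists with complex IV, at 604 RPKM, followed by Ndufb9 at 405 and Ndufb10 at 307 RPKM. Ndufb2 (13.2, at a gene length of 4375 bases) and Ndufa4l2 (7.35), a hypoxia-responsive relative of Ndufa4, had the lowest RPKM. The complex II genes lay close together, with the iron-sulfur subunit Sdhb at 329, the flavoprotein Sdha at 326, and the membrane anchors Sdhd and Sdhc at 226 and 128 RPKM. In complex III, Uqcrh led at 515 RPKM, followed by Uqcr10 at 489 and Uqcr11 at 462, with Uqcrq at 137 RPKM lowest. By counts Uqcrq was not below Uqcr10: it had 232824 in total at a length of 1827 bases, and Uqcr10 197635 at 434 bases.

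In the comparison of Dp16 with wild-type kidneys, which asks what the triplication does to genes inside and outside the segment, no nuclear respiratory gene outside the segment was called. None of the 81 passed the test in edgeR or in DESeq2, and none reached an unadjusted p of 0.05, a level reached by 3004 of all 17575 genes. Their fold changes ran from -0.21 to 0.41 on the log2 scale with a median of -0.02, beside -0.01 over all genes tested. The medians by complex were -0.01 for complex I (39 genes), -0.08 for complex II (4), -0.05 for complex III (8), -0.02 for complex IV (15) and -0.02 for complex V outside the segment (15). Of the 81, 58 lay below 0, where the share over all genes was 52.3%. The direction of so small a median is not stable: it was 0.02 on the deposited RPKM values between -0.07 and 0.02 when single animals were left out, and opposite in sign in males and in females.

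Sdha, the subunit that oxidizes succinate, had the smallest p of these 81. Its lowest, median and highest values were 890.2, 921.2 and 939.5 CPM in Dp16 kidneys and 915.1, 968 and 1084 CPM in wild-type kidneys. The ranges overlapped, and the log2 fold change of -0.09 had an adjusted p of 0.34. Ndufa4l2 had the highest fold change, 0.41, at 4.663, 7.649 and 10.94 CPM in Dp16 kidneys against 3.277, 6.048 and 8.041 CPM in wild-type kidneys (adjusted p = 0.41). Atp5b, the most abundant nuclear transcript of the set, had 3000, 3207 and 3341 CPM in Dp16 kidneys and 2776, 3314 and 3500 CPM in wild-type kidneys, with overlapping ranges. The restricted complex IV isoforms did not separate the genotypes either. Cox6b2 had 2.857, 5.394 and 8.868 CPM in Dp16 kidneys, 3.831, 5.48 and 6.921 CPM in Dp16 2xIFNRs kidneys, and 3.474, 4.758 and 6.053 CPM in wild-type kidneys. Cox6a2 had 0.511, 1.576 and 2.915 CPM in Dp16 kidneys, 0.8373, 1.368 and 2.963 CPM in Dp16 2xIFNRs kidneys, and 0.865, 1.366 and 2.539 CPM in wild-type kidneys. Fold changes of both against wild-type lay between 0.02 and 0.21 (adjusted p from 0.43 to 0.99).

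**Figure D2:**
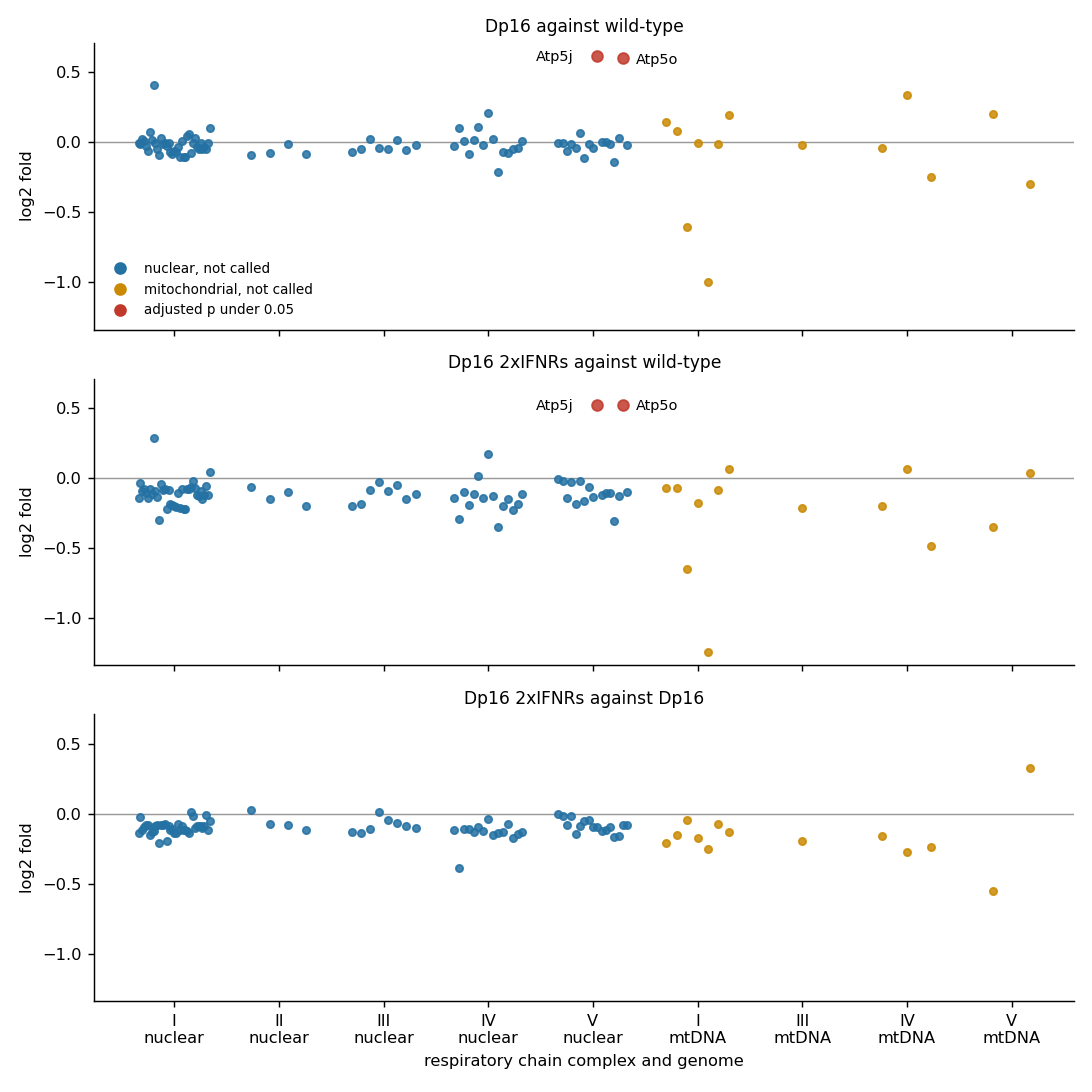
Log2 fold change of each tested gene in the 3 comparisons of genotypes, by complex and by genome, with red marking an adjusted p under 0.05. The only red points are Atp5j and Atp5o against wild-type; the nuclear genes outside the segment cluster around a median of -0.02 in Dp16 and -0.12 in Dp16 2xIFNRs over wild-type kidneys.

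In Dp16 2xIFNRs against wild-type kidneys the nuclear genes outside the segment sat slightly but almost uniformly lower, though none was called. Their median log2 fold change was -0.12, beside 0.01 over all genes, and 77 of 81 lay below 0, where the share over all genes was 48.5%. The medians were -0.11 in complex I (37 of 39 below 0), -0.12 in complex II (4 of 4), -0.11 in complex III (8 of 8), -0.14 in complex IV (13 of 15) and -0.11 in complex V outside the segment (15 of 15). At an unadjusted p of 0.05 there were 14 of these 81 genes and 3196 of all 17575. Subunits of complexes vary together from animal to animal, so 81 genes are not 81 independent observations and the shared direction carries no test.

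The genes with the smallest p in this comparison came from 3 complexes. Ndufa7, an accessory subunit of complex I, had lowest, median and highest values of 74.7, 79.4 and 88.69 CPM in Dp16 2xIFNRs kidneys and 76.68, 97.12 and 124.3 CPM in wild-type kidneys. Cox7a1 had 7.648, 9.538 and 10.6 CPM in Dp16 2xIFNRs kidneys and 9.188, 11.52 and 15.44 CPM in wild-type kidneys. Atp5md, a small membrane subunit of ATP synthase, had 93.05, 99.32 and 106.9 CPM in Dp16 2xIFNRs kidneys and 98.14, 118.2 and 167.9 CPM in wild-type kidneys. In all 3 the ranges overlapped at the low wild-type end. The log2 fold changes were -0.30 for Ndufa7, -0.35 for Cox7a1 and -0.31 for Atp5md, with edgeR adjusted p of 0.13, 0.13 and 0.14. Cox7a1 passed the threshold (-0.43, adjusted p = 0.047) when wild-type replicate 6 was left out.

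Single genes of complexes II and III likewise overlapped. Sdhd had 248, 258.5 and 273.7 CPM in Dp16 2xIFNRs kidneys against 241.5, 292.4 and 380 CPM in wild-type kidneys, a log2 fold change of -0.20 (adjusted p = 0.24). Sdhb had 323.3, 364.6 and 367.8 CPM in Dp16 2xIFNRs kidneys against 327.5, 394.2 and 444.3 CPM in wild-type kidneys. Uqcr10, a small subunit of complex III, had 184.7, 198.1 and 212.6 CPM in Dp16 2xIFNRs kidneys against 180.6, 219.3 and 294.6 CPM in wild-type kidneys, a change of -0.20 (adjusted p = 0.31). The wild-type range enclosed or nearly enclosed the Dp16 2xIFNRs range in each.

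Dp16 2xIFNRs against Dp16 kidneys, which differ in the dosage of the interferon receptor genes, gave no call among the members, where 0.0171% of all genes were called. The median of the 81 nuclear genes was -0.10, beside 0.0033 over all genes, and 77 of 81 lay below 0, where the share over all genes was 49.2%. The median was -0.061 without Dp16 replicate 2, -0.036 in males alone (57 of 81 below 0) and -0.162 in females alone (79 of 81). No member separated these groups by range; 0.0341% of all genes did so with higher and 0.0455% with lower values in Dp16 2xIFNRs kidneys. By complex the medians were -0.09 in complex I, -0.08 in complex II, -0.09 in complex III, -0.13 in complex IV and -0.08 in complex V outside the segment. At an unadjusted p of 0.05 there were 0 of these 81 genes, and DESeq2 called 0 members as well. Among them Cox4i2 had the smallest p. It had 0.7011, 0.9973 and 1.636 CPM in Dp16 2xIFNRs kidneys and 1.022, 1.278 and 1.742 CPM in Dp16 kidneys, a log2 fold change of -0.39 with an adjusted p of 0.85. This comparison shares its Dp16 2xIFNRs libraries with the one against wild-type kidneys.

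Animal by animal, many of the nuclear genes moved together. Averaged over the 81 genes, log2 CPM was 7.484 ± 0.137 in Dp16 kidneys (7.33 to 7.67), 7.391 ± 0.046 in Dp16 2xIFNRs kidneys (7.32 to 7.44) and 7.499 ± 0.175 in wild-type kidneys (7.32 to 7.72; SD, n = 6 each). The Dp16 2xIFNRs animals were close to each other and lay in the lower part of the spread that the other 2 groups covered. In wild-type kidneys, replicates 1, 2 and 3 were at 7.72, 7.62 and 7.62 and replicates 4, 5 and 6 at 7.39, 7.33 and 7.32, with males and females in both sets. Wild-type replicate 1 had the highest value of its group for 57 of the 81 genes, Dp16 replicate 3 for 49, and Dp16 replicate 4 the lowest of its group for 56. In Dp16 2xIFNRs kidneys replicate 4 was lowest for 55, but the highest value was split, with 32 genes in replicate 3 and 24 in replicate 5. The lowest wild-type value was split over replicates 5, 6 and 4, with 31, 30 and 18 genes. Without wild-type replicate 1 the median change in Dp16 2xIFNRs over wild-type kidneys was -0.085, and without wild-type replicate 4 it was -0.165.

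The share of all counts on the nuclear members and the share on the 13 mitochondrial genes were set side by side in each animal. Nuclear members took 2.434%, 2.494% and 2.956% (lowest, median and highest) in Dp16 kidneys, 2.404%, 2.473% and 2.674% in Dp16 2xIFNRs kidneys, and 2.316%, 2.536% and 2.863% in wild-type kidneys. The mitochondrial genes took 6.715%, 8.244% and 10.56% in Dp16 kidneys, 6.349%, 7.747% and 8.594% in Dp16 2xIFNRs kidneys, and 6.078%, 8.547% and 9.712% in wild-type kidneys. All 3 ranges overlapped for both shares. In wild-type kidneys the 2 shares ran in nearly opposite order: replicates 2, 1, 3, 5, 6 and 4 had 2.863%, 2.8%, 2.648%, 2.423%, 2.366% and 2.316% on nuclear members, and 7.171%, 6.078%, 8.266%, 8.828%, 8.988% and 9.712% on mitochondrial genes. In Dp16 kidneys replicate 6 had the lowest nuclear and the highest mitochondrial share, but the other animals followed no such order, and neither did the Dp16 2xIFNRs animals. Both shares are parts of the same library total.

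**Figure D3:**
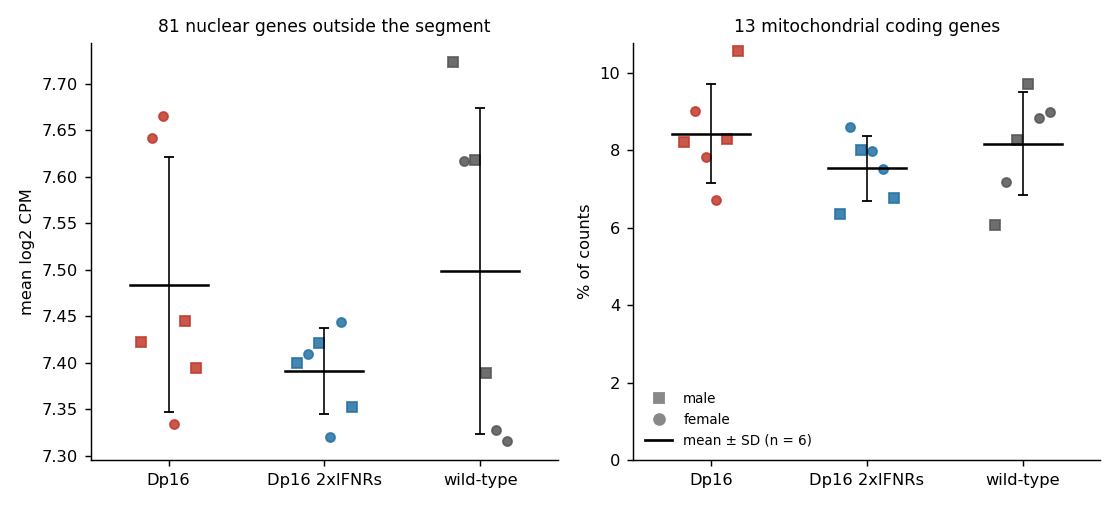
Mean log2 CPM of the 81 nuclear genes outside the segment and percent of all counts on the 13 mitochondrial genes, per animal and genotype (squares males, circles females, bars mean ± SD of 6 animals). The nuclear level runs from 7.32 to 7.44 in Dp16 2xIFNRs kidneys, within the wild-type range of 7.32 to 7.72, and the mitochondrial shares of the 3 groups overlap.

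Gene length, as used for the deposited RPKM, moved with part of this shift. Most respiratory subunits are small proteins, and 59 of the 81 genes had a gene length under 1500 bases. In Dp16 2xIFNRs over wild-type kidneys the short genes had a median of -0.13 and the 22 longer ones -0.08. Among all genes of similar abundance (average log2 CPM of at least 6), the medians were -0.11 for 432 short genes and -0.0048 for 2585 longer genes. In Dp16 2xIFNRs over Dp16 kidneys the values were -0.11 and -0.07 for the members, beside -0.09 and 0.03 for all such genes. In Dp16 over wild-type kidneys short and long members were both at -0.02, beside -0.02 and -0.04. Across the 81 genes, which share libraries and are not independent, Spearman's rho between length and fold change was 0.32 in Dp16 2xIFNRs over wild-type, 0.50 in Dp16 2xIFNRs over Dp16 and -0.06 in Dp16 over wild-type kidneys. The part of length in the shift of the respiratory genes was not tested.

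**Figure D4:**
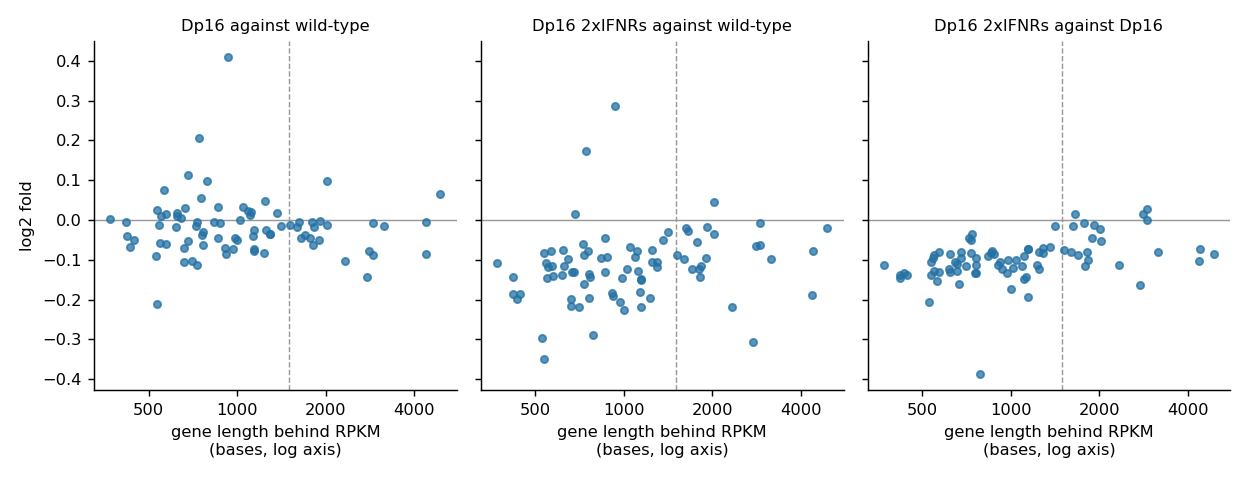
Log2 fold change against gene length in bases for the 81 nuclear genes outside the segment, in the 3 comparisons of genotypes, with a dashed line at 1500 bases. Short genes lie lower than long ones in Dp16 2xIFNRs over wild-type kidneys (medians -0.13 and -0.08) and not in Dp16 over wild-type kidneys (both -0.02).

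The 13 mitochondrial genes fell into abundant and scarce ones in the count table. Mean RPKM was 15563 for mt-Cytb (cytochrome b of complex III), 15459 for mt-Co1 (the catalytic subunit of complex IV), 12520 for mt-Nd1, 10156 for mt-Nd2, 5113 for mt-Nd5 and 4508 for mt-Nd4 (core membrane subunits of complex I). The others were at 443 (mt-Co2), 226 (mt-Atp6), 200 (mt-Co3), 130 (mt-Nd6), 116 (mt-Atp8), 62.5 (mt-Nd3) and 46.1 RPKM (mt-Nd4l). All except mt-Nd6 of these scarce genes lie wholly in a stretch of the mitochondrial genome that chromosome 1 also carries as a nuclear copy.

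That copy spans 4663 bases of chromosome 1 (positions 24611535 to 24616197, minus strand, GRCm38) and answers to positions 6381 to 11042 of the mitochondrial genome. It holds 6 annotated copies, Gm29216, Gm28661, Gm10925, Gm28437, Gm28438 and Gm28439. They were aligned locally, which can leave out unlike ends: 483 of the 492 bases of Gm29216 and 342 of the 345 of Gm28438 were aligned. Differences outside the aligned bases are not counted here. Over 3843 aligned bases the copies differ from the mitochondrial genes at 1 base, A6393T (mitochondrial base first, position counted on the mitochondrial genome), in the copy of mt-Co1. A stretch around that base and a stretch of mt-Co3 are printed to show how alike the copies are; capitals mark the base that differs, and the mt-Co3 pair is identical letter for letter.
mt-Co1, chrM:6390-6429, plus strand: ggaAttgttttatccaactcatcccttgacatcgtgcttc
Gm29216, chr1:24616149-24616188, minus strand: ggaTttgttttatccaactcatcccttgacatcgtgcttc
mt-Co3, chrM:8968-9027, plus strand: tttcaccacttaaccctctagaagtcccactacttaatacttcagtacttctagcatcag
Gm28437, chr1:24613551-24613610, minus strand: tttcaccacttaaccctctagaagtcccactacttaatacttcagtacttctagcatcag
The 6 genes wholly inside the stretch are mt-Co2, mt-Atp8, mt-Atp6, mt-Co3, mt-Nd3 and mt-Nd4l, and they held 0.646% to 1.18% of the counts on mitochondrial coding genes in each library. Of mt-Co1, 492 of 1545 bases lie inside, and of mt-Nd4, 876 of 1378. The chromosome 1 copies took 20191 to 133341 counts per library. The levels of the 6 genes in this table are therefore uncertain, and those of mt-Co1 and mt-Nd4 in part. None of the 6 chromosome 1 copies was called in any comparison of genotypes (smallest adjusted p = 0.29, Gm28439).

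No mitochondrial gene was called in any comparison of genotypes by edgeR or by DESeq2. At an unadjusted p of 0.05 there were 0 in Dp16 over wild-type, 2 in Dp16 2xIFNRs over wild-type and 1 in Dp16 2xIFNRs over Dp16 kidneys. In Dp16 over wild-type kidneys the median log2 fold change of the 13 was -0.01 (8 of 13 below 0), in Dp16 2xIFNRs over wild-type kidneys -0.18 (10 of 13) and in Dp16 2xIFNRs over Dp16 kidneys -0.17 (12 of 13). These medians rested on few animals: over wild-type the Dp16 2xIFNRs value was -0.117 without Dp16 2xIFNRs replicate 1 and -0.274 without wild-type replicate 1, and over Dp16 it was -0.09 (9 of 13 below 0) without Dp16 replicate 6. In males alone they were -0.207 over wild-type and -0.37 over Dp16 kidneys, and in females alone -0.034 and -0.012. For the 7 genes not wholly inside the copied stretch the medians were -0.01, -0.09 and -0.16 in that order of comparisons. mt-Cytb had lowest, median and highest values of 13560, 18440 and 24310 CPM in Dp16 kidneys, 13730, 15960 and 19000 CPM in Dp16 2xIFNRs kidneys, and 14510, 19230 and 23630 CPM in wild-type kidneys. mt-Co1 had 20050, 23800 and 29880 CPM in Dp16 kidneys, 18390, 22020 and 26500 CPM in Dp16 2xIFNRs kidneys, and 19350, 25540 and 29730 CPM in wild-type kidneys. The groups overlapped almost completely in both, and the changes in Dp16 2xIFNRs over wild-type kidneys were -0.21 (adjusted p = 0.38) and -0.20 (adjusted p = 0.34).

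mt-Nd1 had 9225, 12980 and 17080 CPM in Dp16 kidneys, 10050, 10700 and 13520 CPM in Dp16 2xIFNRs kidneys, and 9124, 11880 and 14890 CPM in wild-type kidneys. mt-Nd5 had 6835, 9714 and 13140 CPM in Dp16 kidneys, 7575, 9008 and 10440 CPM in Dp16 2xIFNRs kidneys, and 6692, 9777 and 13210 CPM in wild-type kidneys. mt-Nd6, the only coding gene of the opposite mitochondrial strand, had 54.85, 71.03 and 106.3 CPM in Dp16 kidneys, 53.34, 66.82 and 78.45 CPM in Dp16 2xIFNRs kidneys, and 50.44, 62.96 and 79.56 CPM in wild-type kidneys. The Dp16 2xIFNRs range lay inside the Dp16 range for mt-Nd1 and mt-Nd5, and began just under it for mt-Nd6.

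The genes inside the copied stretch varied more between animals of 1 group than the rest. The ratio of the highest to the lowest animal had a median of 2.96 in Dp16, 2.00 in Dp16 2xIFNRs and 5.09 in wild-type kidneys for these 6, of 1.91, 1.41 and 1.63 for the 7 others, and of 1.33, 1.16 and 1.41 for the 81 nuclear genes. The smallest p values and largest fold changes among mitochondrial genes came from the copied stretch. mt-Nd4l had 6.918, 9.415 and 19.21 CPM in Dp16 kidneys, 6.331, 8.026 and 12.1 CPM in Dp16 2xIFNRs kidneys, and 6.731, 8.311 and 87.78 CPM in wild-type kidneys. Its log2 fold changes of -0.996 in Dp16 (adjusted p = 0.33) and -1.245 in Dp16 2xIFNRs over wild-type kidneys (adjusted p = 0.20) rested on wild-type replicate 4, without which they were 0.13 and -0.22.

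mt-Nd3 had 13.07, 17.53 and 28.44 CPM in Dp16 kidneys, 13.94, 15.09 and 22.9 CPM in Dp16 2xIFNRs kidneys, and 12.75, 18.66 and 70.61 CPM in wild-type kidneys. The 3 medians were close, and the change of -0.60 in Dp16 over wild-type kidneys (adjusted p = 0.31) was -0.23 without wild-type replicate 2. mt-Co2 ran the other way at 260.8, 320.6 and 459.3 CPM in Dp16 kidneys against 221.9, 270.9 and 326.6 CPM in wild-type kidneys (log2 fold change 0.34, adjusted p = 0.31). mt-Atp6, a proton-channel subunit of ATP synthase, had 90.3, 132.4 and 140.9 CPM in Dp16 2xIFNRs kidneys and 89.18, 169.6 and 280.9 CPM in Dp16 kidneys. Its change of -0.55 was the only one of the 96 with an unadjusted p under 0.05 in that comparison (0.040, adjusted p = 0.85), and it was -0.33 without Dp16 replicate 2.

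mt-Co3, a core subunit of complex IV, had 68.32, 143.9 and 222.5 CPM in Dp16 kidneys, 89.26, 125.8 and 187 CPM in Dp16 2xIFNRs kidneys, and 88.93, 120.2 and 412.1 CPM in wild-type kidneys. The medians were close while the highest animal was wild-type, and the change of -0.48 in Dp16 2xIFNRs over wild-type kidneys (adjusted p = 0.48) was -0.21 without wild-type replicate 4. mt-Atp8, the small accessory subunit of ATP synthase, had 10.88, 15.07 and 43.55 CPM in Dp16 kidneys, 11.11, 24.94 and 44.21 CPM in Dp16 2xIFNRs kidneys, and 10.51, 17.08 and 73.84 CPM in wild-type kidneys. Its highest animals differed from those of mt-Nd4l and mt-Nd3, so no single library was high for all of the scarce genes.

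**Figure D5:**
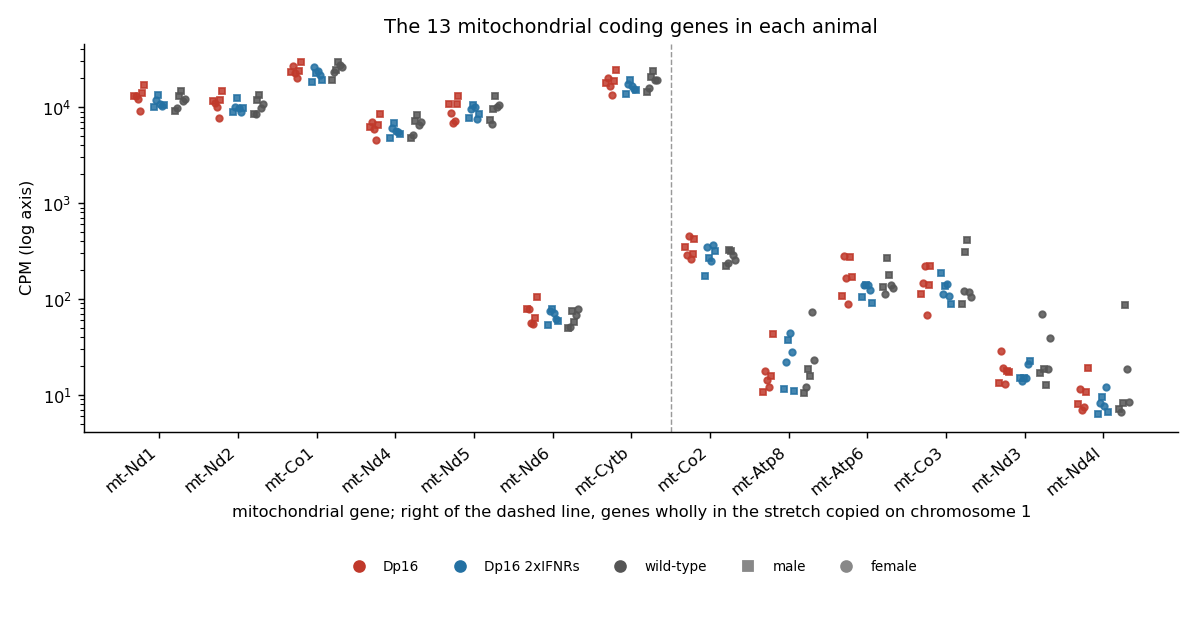
CPM (log axis) of the 13 mitochondrial genes in each animal by genotype, with a dashed line setting apart the 6 genes that lie wholly in the stretch copied on chromosome 1. The copied genes are low and scattered, with wild-type replicate 4 at 87.78 CPM for mt-Nd4l, and the others lie close together in every group.

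Sex, compared over 9 males and 9 females in the same fit, moved more respiratory genes than genotype did, though fewer than genes at large. Of the 96 tested, 11 were called higher and 2 lower in males, where 38.8% of all genes were called, 19.0% higher and 19.7% lower. Of the 96, 37 lay below 0, where the share over all genes was 53.6%. Of the 11 higher, 8 were among the 39 nuclear complex I genes, a share close to the 19.0% of all genes. The others were mt-Nd2, the complex III iron-sulfur subunit Uqcrfs1 and Atp5b. Ndufa10 averaged 342.9 ± 15.7 CPM in males and 283.8 ± 18.1 CPM in females (SD, n = 9 each), and no male overlapped a female. Its log2 fold change was 0.27 ± 0.04 (SE, edgeR adjusted p = 6.6e-05). Ndufv1, which carries the flavin site that takes electrons from NADH, averaged 361.4 ± 18.4 CPM in males and 304.4 ± 20.1 CPM in females, also without overlap (0.25, adjusted p = 0.00022).

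Further genes counted here with complex I were higher in males, with ranges that overlapped. Ndufv3 differed by 0.31 (adjusted p = 0.00017), and the iron-sulfur subunit Ndufs1 by 0.18 (adjusted p = 0.00083). Ndufb4, Ndufa1 and Ndufa4 followed at 0.28, 0.21 and 0.23 (adjusted p = 0.022 to 0.029), Uqcrfs1 at 0.19 (adjusted p = 0.014), Atp5b at 0.11 (adjusted p = 0.031) and mt-Nd2 at 0.25 (adjusted p = 0.045).

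Complex IV held both genes that were lower in males. Cox6b2 averaged 3.75 ± 0.51 CPM in males and 6.75 ± 1.12 CPM in females, with no overlap, a log2 fold change of -0.84 ± 0.10 (SE, adjusted p = 1.4e-06). Cox7a2l averaged 118 ± 14.4 CPM in males and 145.5 ± 13 CPM in females (-0.30, edgeR adjusted p = 0.00095). Groups did not overlap for 2 members higher and 1 lower in males, where this held for 5.96% and 3.45% of all genes. The counts of calls depended on the scaling: on the deposited RPKM values, where the median of all genes moved to -0.13, 3 members were called higher and 21 lower in males. On counts, 4 were called lower without wild-type replicate 1 and 5 without Dp16 replicate 4. Ndufa10, Ndufv1, Ndufv3, Cox6b2 and Cox7a2l kept their direction and passed the test under every alternative tried. By contrast, mt-Nd2 missed the threshold under 12 of 27 alternatives. Atp5b missed it with its direction kept under 6 of 28. Under 1 more, limma on log2(RPKM + 0.1), Atp5b missed it and changed sign (-0.012, adjusted p = 0.86). Nephron and other cell markers differed by sex as well. Of 20 proximal tubule markers, 9 were called higher and 7 lower in males (median -0.04), at a summed 58790 to 71370 CPM in males and 42160 to 50120 CPM in females. Lower in males were 6 of 7 thick ascending limb, 6 of 6 podocyte, 6 of 8 endothelial and 12 of 12 stroma markers. Their part in the sex differences of the respiratory genes was not tested.

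The change in the nuclear genes of Dp16 kidneys pointed in different directions in the 2 sexes, but the difference was not called for any member. In males alone the median of the 81 was -0.18 in Dp16 over wild-type kidneys, with 79 below 0, and in females alone 0.10, with 6 below 0. In the test of the interaction 0 of 96 members were called (smallest adjusted p = 0.63, Ndufb3), where 0.0171% of all genes were called. At an unadjusted p under 0.05 there were 18 of the 96, 16 of them below 0 (male minus female), and 1380 of all 17575 genes. Of the 96, 87 lay below 0 (median -0.288), where the share over all genes was 49.2%. In Dp16 2xIFNRs over wild-type kidneys the medians were -0.21 in males (79 of 81 below 0) and -0.05 in females (68 of 81), and 0 members were called for the interaction (1 with an unadjusted p under 0.05), where 0.00569% of all genes were. There 92 of 96 lay below 0 (median -0.153), beside 50.4% of all genes. DESeq2 was not run on the interaction. Each sex has 3 animals per group, so 1 animal weighs heavily in these medians.

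Few genes that build and serve the chain were called between genotypes. In Dp16 2xIFNRs over wild-type kidneys most of them lay below 0, as the subunits did: 42 of 47 assembly factors and carriers, 24 of 30 genes of mitochondrial DNA expression, 66 of 77 mitochondrial ribosomal proteins, 16 of 17 genes of the tricarboxylic acid cycle and 19 of 23 carriers and pores, where the share over all genes was 48.5%. In Dp16 over wild-type kidneys the counts were 32, 21, 51, 13 and 16. Of 47 tested assembly factors and electron carriers, 0 were called in Dp16 or in Dp16 2xIFNRs over wild-type kidneys by edgeR (medians -0.04 and -0.06), and 1 and 8 had an unadjusted p under 0.05. Among them was Cyc1, the cytochrome c1 subunit of complex III, at 356.6 to 424.7 CPM in Dp16 kidneys, 362.8 to 401.7 CPM in Dp16 2xIFNRs kidneys and 343.3 to 462.8 CPM in wild-type kidneys. By sex 14 of the 47 were called higher in males, where 19.0% of all genes were. They were led by Cycs, the somatic cytochrome c that carries electrons to complex IV. It had 212.5 to 261.8 CPM in males and 117 to 167.2 CPM in females (log2 fold change 0.68, edgeR adjusted p = 4.4e-08). The other lists had such calls too: 12 of 30 genes of mitochondrial DNA expression, 27 of 77 mitochondrial ribosomal proteins, 10 of 17 genes of the tricarboxylic acid cycle and 10 of 23 carriers and pores. Called lower in males were 4 of these ribosomal proteins and 1 of these carriers and pores.

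Of 30 genes of mitochondrial DNA expression, 1 was called against wild-type in each line: Fastkd1, a mitochondrial RNA-binding protein, was lower in Dp16 (-0.22, adjusted p = 0.044) and in Dp16 2xIFNRs kidneys (-0.25, adjusted p = 0.020). Tfam, the main packaging and transcription factor of mitochondrial DNA, had 37.36 to 44.59 CPM in Dp16 kidneys, 38.52 to 46.08 CPM in Dp16 2xIFNRs kidneys and 39.99 to 51.05 CPM in wild-type kidneys, with adjusted p of 0.12 in Dp16 and 0.19 in Dp16 2xIFNRs over wild-type kidneys. Of 77 mitochondrial ribosomal proteins, the 2 called were those in the segment. Mrpl39 rose by 0.58 in Dp16 and 0.52 in Dp16 2xIFNRs kidneys, and Mrps6 by 0.66 and 0.47; the list's medians were -0.03 and -0.09.

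Among 15 nuclear regulators of respiratory genes, Gabpa, itself in the segment, rose in both lines. It had 51.75 to 67.69 CPM in Dp16 kidneys, 56.25 to 64 CPM in Dp16 2xIFNRs kidneys and 36.71 to 46.52 CPM in wild-type kidneys, without overlap against wild-type. Its log2 fold changes were 0.49 (adjusted p = 0.00018) and 0.57 (adjusted p = 4.2e-05). Nrip1, a corepressor in the segment, was called higher in Dp16 2xIFNRs over wild-type kidneys (0.53, adjusted p = 0.024) and was at 0.24 in Dp16 (adjusted p = 0.38). Sirt3, a mitochondrial deacetylase, was lower in Dp16 2xIFNRs kidneys (-0.33, adjusted p = 0.029) and at -0.28 in Dp16 kidneys (adjusted p = 0.069). Ppargc1a, Esrra, Nrf1 and Yy1 were not called, with fold changes between -0.12 and 0.11.

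Of 17 genes of the tricarboxylic acid cycle, 0 were called by edgeR in Dp16 over wild-type kidneys (5 with an unadjusted p under 0.05). In Dp16 2xIFNRs over wild-type kidneys 1 was called, Suclg2, the GTP-forming succinyl-CoA ligase subunit (-0.23, adjusted p = 0.018). Of 23 carriers, pores and membrane-shaping genes, only Slc25a10, the dicarboxylate carrier, was called. It had 344.1 to 447.2 CPM in Dp16 kidneys, 286.9 to 421.4 CPM in Dp16 2xIFNRs kidneys and 482.1 to 597.5 CPM in wild-type kidneys. Neither line overlapped wild-type, and the log2 fold changes were -0.44 (adjusted p = 0.0051) and -0.48 (adjusted p = 0.0027).

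Libraries held 42157790 to 57814587 counts and matched their sex labels. Nephron markers were at kidney levels (Slc34a1 1136 to 1747, Umod 1257 to 2156 and Aqp2 115.7 to 198.2 RPKM). Macrophage markers stood higher, with 8 of 10 called in each line, at a summed 277.7 to 350.4 CPM in Dp16 kidneys, 270.2 to 369.2 CPM in Dp16 2xIFNRs kidneys and 164.2 to 256.5 CPM in wild-type kidneys. Lymphocyte (5 and 3 of 12 higher in Dp16 and in Dp16 2xIFNRs) and tubule injury markers (5 and 5 of 10 higher) moved too. Of 20 proximal tubule markers, 1 was higher and 3 lower in Dp16, and 3 lower in Dp16 2xIFNRs kidneys, at a summed 42160 to 63560, 42640 to 64250 and, in wild-type kidneys, 44480 to 71370 CPM. Podocyte markers had 1 and 2 of 6 higher, distal tubule markers 1 and 2 of 7, and stroma markers 2 and 0 of 12. None was called among 8 endothelial, 7 thick ascending limb, 8 principal cell, 7 intercalated cell or 4 tested skeletal muscle markers by edgeR, where 1 to 5 of each list had an unadjusted p under 0.05.

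Some markers of tissue next to the kidney were called between genotypes too. Of 11 fat markers, Adipoq was higher in Dp16 (0.60), and 3 brown fat genes were lower in Dp16 2xIFNRs than in wild-type kidneys: Ucp1 (-2.26), Cidea (-1.53) and Cox8b (-1.75). The list did not move in 1 direction. Its median over wild-type was 0.37 in Dp16 (4 of 11 below 0) and -0.04 in Dp16 2xIFNRs kidneys (6 of 11 below 0). Cox8b, a complex IV isoform of brown fat and muscle that the choice of members leaves out, had 2.811 to 9.466 CPM in Dp16 kidneys, 0.791 to 4.49 CPM in Dp16 2xIFNRs kidneys and 5.966 to 17.01 CPM in wild-type kidneys. Of 2 tested adrenal markers, Star was lower in Dp16 2xIFNRs than in wild-type kidneys (-3.94). Adrenal markers varied widely between animals, at a summed 0.6424 to 83.8 CPM in wild-type kidneys and 0.448 to 9.757 CPM in Dp16 kidneys. In Dp16 2xIFNRs kidneys the sum was 0.2372 to 0.8051 CPM, a range that held the lowest wild-type animal. The part of these other tissues and cell types in the shifts of the respiratory genes was not tested.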

How the data were processed

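Kidney RNA was extracted with TRIzol and made into strand-specific polyadenylated libraries that were sequenced in pairs, per the labels' protocols. Demultiplexing with bcl2fastq, quality checks with FastQC 0.11.5, alignment with HISAT2 2.1.0, SAMtools 1.5 and counting with HTSeq 0.6.1 are named in the submitters' processing notes; whether counting used the strand, and how multiply placed reads were treated, is not given in the sources used here. The count per gene and library and the RPKM per gene and library are the tables the authors deposited, with 55385 genes and 18 libraries; the file names give GENCODE M24 as the annotation. Positions were taken from GENCODE M21 (GRCm38), where 55144 identifiers matched, and promoters from RefSeq (GRCm38.p6).

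Counts were tested with edgeR 4.0.16 in R 4.3.3: genes passing the filter on low counts (minimum count 10, minimum total 15; 17575 genes), trimmed-mean normalization, and a quasi-likelihood fit of group and sex over all 18 libraries. P-values were adjusted by Benjamini-Hochberg over all genes tested, with a threshold of 0.05. The sex comparison comes from the same fit, and the interaction from a fit with group by sex. RPKM served for levels between genes. The procedure was tested on simulated counts. Depth was 42157790 to 57814587 counts per library, and the common biological coefficient of variation was 16.8%, so the spread between animals and not counting error limits the precision of all but the scarcest genes.

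The members and gene lists were chosen with earlier results of these data known. Members named were the Atp5 rows on chromosome 16, the mitochondrial genes, those called, the highest mean RPKM of each complex, the largest absolute fold change of each complex and comparison, the restricted isoforms and the 5 of smallest p in each direction by sex; from the lists, segment genes and up to 3 called genes of smallest p. Others (such as Ndufa7, Atp5md, Ndufb4, Cycs, Tfam and the members named for their level or order) were chosen after their values were seen. Replicate numbers were not taken to pair the samples. The lowest chi-square per degree of freedom between libraries of 1 group, over 45 pairs, was 18.4, so no library looked like a second deposit of another. Alternatives were other size factors and filters, DESeq2 1.42.0, limma 3.58.1 on log2(RPKM + 0.1) and on counts, other covariates, single sexes and single libraries left out. The values of 1 complex I gene are not reported here.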

Additional observations from a re-analysis of the deposited data

Results flagged for a closer look

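In 6 of 147 sets of 6 animals looked at, the highest or lowest animal lay far from the others, its gap to the nearest one exceeding the critical share of the whole range in Dixon's test. Chance alone gives about 1 in 20 such sets, and 6 of 147 is not more than that. Of the 6 sets, 4 were of mitochondrial genes: mt-Nd2, mt-Nd4l, and mt-Atp8 in both Dp16 and wild-type kidneys. Of these genes, mt-Nd4l and mt-Atp8 lie wholly in the stretch copied on chromosome 1. mt-Nd4l was at 87.78 CPM in wild-type replicate 4, with the other wild-type animals at 6.731 to 18.62 CPM. mt-Atp8 was at 43.55 CPM in Dp16 replicate 6, with the other Dp16 animals at 10.88 to 17.99 CPM, and at 73.84 CPM in wild-type replicate 5, with the others at 10.51 to 23.38 CPM. mt-Nd2, which the chromosome 1 stretch does not reach, was at 12560 CPM in Dp16 2xIFNRs replicate 3, with the others at 8909 to 10060 CPM.

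Cox6a2, at the low end of complex IV, was at 2.539 CPM in wild-type replicate 1, with the others at 0.865 to 1.377 CPM. The log2 ratio of Atp5j to the 15 other nuclear ATP synthase genes was -0.053 in Dp16 replicate 5, with the other Dp16 animals at 0.009 to 0.04. That animal still lay above every wild-type animal, where the highest ratio was -0.597.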

How the results depend on the processing

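Atp5j and Atp5o kept their direction under every alternative. Against wild-type, both passed the threshold in Dp16 and in Dp16 2xIFNRs kidneys except with females alone, where Atp5o was at 0.69 in Dp16 (adjusted p = 0.090), and Atp5j at 0.58 (0.10) and Atp5o at 0.58 (0.20) in Dp16 2xIFNRs kidneys. With females alone 1 member was called higher in Dp16 and 0 in Dp16 2xIFNRs kidneys. Leaving out single libraries, Atp5j ranged from 0.57 to 0.66 and Atp5o from 0.55 to 0.65 in Dp16, and from 0.47 to 0.56 and 0.48 to 0.57 in Dp16 2xIFNRs kidneys; 2 members stayed called higher in each, and 0 to 1 were called lower in Dp16 2xIFNRs kidneys. Over all genes, 744 calls in Dp16 over wild-type became 190 without the sex covariate, 1235 with DESeq2, 453 with only the 2 groups, 318 with males and 33 with females alone. The 841 in Dp16 2xIFNRs over wild-type became 234 without the sex covariate, 1287 with DESeq2, 343 with males and 14 with females alone. The 3 in Dp16 2xIFNRs over Dp16 became 1 with males and 0 with females alone. Without single libraries these counts ran from 429 (Dp16 replicate 3 left out, with 462 for Dp16 replicate 1 and 478 for wild-type replicate 4) to 815, from 526 (wild-type replicate 1 left out, with 552 for Dp16 2xIFNRs replicate 1) to 920, and from 3 to 4.

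In males over females, 8 to 12 members were called higher and 2 to 5 lower without single libraries. On log2(RPKM + 0.1) the counts were 3 and 21, and Sdha (-0.10) and Atp5b (-0.012) changed sign; the cause was not tested, and the median of all genes was -0.13 there, against -0.03 on counts. With the replicate number as a block, no call among the members changed against wild-type (Atp5j 0.62 in Dp16 and 0.53 in Dp16 2xIFNRs kidneys), 10 members were higher in males, and 910, 945, 3 and 5508 genes were called in the 4 comparisons. The numbers were not taken to pair samples. Deviations of 18 pairs with the same number correlated from -0.06 to 0.22 (median 0.04), with 3 over 0.1. Those of 90 pairs with different numbers correlated from -0.18 to 0.13 (median -0.007), with 5 over 0.1. With the last number of the sample descriptions as a block in limma, whose consensus correlation was 0.0778, the calls among members against wild-type were again 2 higher and 0 lower in each line.

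The median of the 81 nuclear genes stayed below 0 in Dp16 2xIFNRs over wild-type (-0.21 to -0.05) and over Dp16 kidneys (-0.16 to -0.04) under the alternatives, and changed sign in Dp16 over wild-type kidneys (-0.18 to 0.10). Adding the chromosome 1 copies to their mitochondrial genes was chosen after seeing the data and gave no new call. Depth limits the isoforms near 1 CPM, Cox4i2 and Cox6a2. DESeq2 was not summarised for the lists beyond the subunits.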
